A study of Mus musculus with 2 samples.

Results

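The subject is a set of 9 mouse genes that act as ubiquitin brakes on inflammatory signalling: Tnfaip3, which encodes A20, its binding partners Tnip1, Tnip2 and Tnip3, the deubiquitinases Cyld and Otud7b, and Tax1bp1, Itch and Rnf11, whose products are known as helpers of A20. They were taken by symbol from a fixed list, chosen with earlier results of these data known. All 9 were found among the 55536 annotated genes of the deposited tables. The libraries held rRNA-depleted total RNA from the nucleoplasmic fraction, the soluble content of the nucleus, of bone-marrow-derived macrophages (BMDM). These are primary cells grown out of mouse bone marrow, here of strain C57BL/6J. The cells had received Lipid A, the part of bacterial lipopolysaccharide that Toll-like receptor 4 recognises, at 100 ng/ml for 60 min. They formed 1 group of 2 biological replicates, separate biosamples that carry the same donor label, started from 1 µg of RNA in replicate 1 and 500 ng in replicate 2. No unstimulated library, other fraction or other time was analysed here. Each value is thus a level of nucleoplasmic RNA in stimulated cells, and none is a response to Lipid A. The spread between libraries with the same donor label may be smaller than that between animals.

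Toll-like receptor signalling builds polyubiquitin chains on adaptor proteins and kinases. The chains serve as platforms on which TAK1 and the IκB kinases are activated, which leads to release of NF-κB into the nucleus. A20 edits or caps these chains, ABIN proteins carry a ubiquitin-binding region and can bring A20 to its targets, and CYLD and OTUD7B (also called Cezanne) cut chains. Tnfaip3 and Tnip1 are textbook NF-κB target genes in macrophages and form a negative feedback loop, and loss of A20 or ABIN-1 in mice gives inflammation.

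Promoter sequences are shown for the genes whose upstream windows held a match to the κB consensus, the DNA element bound by NF-κB, since these genes range from the highest to near the lowest level of the set. Of the 9 genes, 6 had a RefSeq promoter entry on GRCm38.p6, with 8 start sites between them, and the entries were searched over the 250 bases upstream of the start on both strands. Each run below is written 5′ to 3′ on the strand of the gene and ends at the base before the start site, and capitals mark κB matches. The Tnfaip3 run stops short of an annotated exon of another Tnfaip3 transcript, so it has 137 bases.
Tnfaip3, GRCm38.p6 chr10:19015411-19015547, minus strand: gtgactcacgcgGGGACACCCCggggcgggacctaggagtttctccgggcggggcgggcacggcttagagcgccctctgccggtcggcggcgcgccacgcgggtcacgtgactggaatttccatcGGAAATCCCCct
Tnip1, GRCm38.p6 chr11:54962941-54963190, minus strand: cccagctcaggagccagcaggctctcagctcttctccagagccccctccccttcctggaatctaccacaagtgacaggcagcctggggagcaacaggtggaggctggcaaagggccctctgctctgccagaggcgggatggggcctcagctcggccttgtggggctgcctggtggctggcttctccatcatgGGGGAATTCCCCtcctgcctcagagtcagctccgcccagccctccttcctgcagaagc
Tnip3, GRCm38.p6 chr6:65590148-65590397, plus strand: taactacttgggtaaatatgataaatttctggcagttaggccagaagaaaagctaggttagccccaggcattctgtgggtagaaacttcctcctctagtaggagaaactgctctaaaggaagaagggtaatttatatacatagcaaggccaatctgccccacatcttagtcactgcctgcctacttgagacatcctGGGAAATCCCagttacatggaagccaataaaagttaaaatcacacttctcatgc
Cyld, GRCm38.p6 chr8:88696778-88697027, plus strand: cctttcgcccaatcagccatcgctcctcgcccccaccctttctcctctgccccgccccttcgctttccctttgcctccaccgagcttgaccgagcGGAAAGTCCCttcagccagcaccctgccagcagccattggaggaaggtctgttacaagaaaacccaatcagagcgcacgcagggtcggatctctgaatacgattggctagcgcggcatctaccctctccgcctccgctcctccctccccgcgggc

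In these windows, 4 of the 6 genes held at least 1 κB match. Tnfaip3 held 2, at positions -125 to -116 and -12 to -3 from its start. Tnip1 held 3 matches that overlap each other within positions -58 to -47, and Tnip3 held 1 at -54 to -45. Cyld held 1 at -155 to -146. No match was present in the windows of Tnip2 and Tax1bp1 or in the window of the second, downstream Tnfaip3 start. Among all 32851 RefSeq promoter windows of the same length, 7.25% held a match. This share counts windows, whereas the 4 of 6 counts genes, and the 6 genes had 8 windows. The AP-1 motif TGANTCA was present in the printed Tnfaip3 window, at -136 to -130, and in 6.75% of all windows. The GC box GGGCGG was present in the windows of Tnfaip3, Tnip1, Tnip2 and Cyld, with 5 matches for Tnip2, and in 32.7% of all windows. These are matches of letters, not measured binding.

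The libraries summed to 21256531 and 15643649 expected counts in replicates 1 and 2. Transcripts of the mitochondrial genome took 5.10% and 6.17% of TPM, a share of the library corrected for transcript length, so the fraction held some RNA from outside the nucleus. All 9 macrophage markers reached a TPM of 10 in both libraries, with summed TPM of 3976 and 3540. The 4 T-cell markers had no count in either library, where 3 counts correspond to 0.142 and 0.192 CPM (counts scaled to library size), and B-cell, neutrophil, dendritic-cell, megakaryocyte and fibroblast markers summed to between 0.11 and 2.15 TPM per list. In the gene table, TPM values of protein-coding genes were mostly lower in replicate 2. The median log2 ratio (replicate 1 over replicate 2) was 0.42 over the 8622 of them whose TPM was at least 1 in each library. The SD of a TPM includes that shift. Protein-coding genes of the nuclear genome held 25.4% of all TPM in replicate 1 and 18.8% in replicate 2, and other RNA held the remainder.

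The 9 genes spanned more than 100-fold in level, and a single gene, Tnfaip3, held most of their RNA. In both libraries, 6 of the 9 genes reached a TPM of 10: Tnfaip3, Tnip3, Tnip1, Tax1bp1, Tnip2 and Itch. Of all 22015 protein-coding genes of the nuclear genome, 14.4% did so. Rnf11, Cyld and Otud7b were below that level in at least 1 library, and all 9 were above a TPM of 1, as were 39.2% of the protein-coding genes. Tnfaip3 and Tnip3, 2 of the 9, reached a TPM of 100 in both libraries, against 1.39% of the protein-coding genes. The median log2(TPM + 1) of the 9 genes was 5.02 in replicate 1 and 4.42 in replicate 2 (4.72 ± 0.43, SD, n = 2), against 0.32 ± 0.05 for all protein-coding genes and 3.04 ± 0.24 for the 8622 at a TPM of at least 1. In bulk RNA, a share of cells with more transcript and a higher level in every cell cannot be told apart.

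Tnfaip3 (ENSMUSG00000019850, chr10:19000910-19015657, minus strand, mm10) encodes A20, a ubiquitin-editing enzyme with a deubiquitinase domain and zinc fingers. It had TPM of 840 and 658 in replicates 1 and 2 (749 ± 129, SD, n = 2), from 67931 and 46672 expected counts. This placed it at rank 18 and rank 17 of the 22015 protein-coding genes. It held 57.1% and 63.1% of the summed TPM of the 9 genes. Its level exceeded that of Tnip3, the next gene, by 1.47 ± 0.31 on the log2(TPM + 1) scale, a within-library difference larger than its spread.

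The 3 ABIN genes were unequal. Tnip3 (ENSMUSG00000044162, chr6:65525313-65634040, plus strand) encodes ABIN-3, known from human cells as an inhibitor of NF-κB that lipopolysaccharide can induce. Its TPM was 353 and 203 (278 ± 106), from 18953 and 11299 expected counts. Tnip1 (ENSMUSG00000020400, chr11:54910785-54962917, minus strand) encodes ABIN-1, which binds linear ubiquitin chains and A20. Its TPM was 146 and 83.98 (115 ± 43.7), from 5109 and 2800 expected counts. Tnip2 (ENSMUSG00000059866, chr5:34496087-34513991, minus strand) encodes ABIN-2, which also binds the kinase TPL2. Its TPM was 31.4 and 20.4 (25.9 ± 7.82), from 846 and 572 expected counts. Tnip3 lay above Tnip2 by 3.35 ± 0.14 and Tnip1 lay above Tnip2 by 2.09 ± 0.13 on the log2(TPM + 1) scale, with the same order in each library and each difference larger than its spread. Over transcripts annotated as protein-coding alone, Tnip3 minus Tnip2 was smaller, 1.32 ± 0.15, and Tnip1 minus Tnip2 was 2.19 ± 0.35.

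The place of Tnip3 depended on which of its transcripts were counted. Over the whole gene, Tnip3 was above Tnip1 by 1.27 in each library. Over transcripts annotated as protein-coding alone, Tnip3 had TPM of 43.6 and 28.8 and Tnip1 had 88.9 and 48.2, and the difference of Tnip3 minus Tnip1 turned to -0.87 ± 0.21 (SD, n = 2). Restricted in that way, Tnip3 and Tax1bp1 differed by 0.00471 ± 0.0976, less than the spread. Tnfaip3 remained first at TPM of 479 and 322.

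The genes of the other deubiquitinases had far lower levels of nucleoplasmic RNA than Tnfaip3. Cyld (ENSMUSG00000036712, chr8:88697028-88751945, plus strand) encodes a chain-cutting tumour suppressor, named for the skin tumours of human cylindromatosis. It had TPM of 10.01 and 6.43 (8.22 ± 2.53), from 900 and 631 expected counts. Otud7b (ENSMUSG00000038495, chr3:96104527-96161129, plus strand) encodes an OTU-family deubiquitinase related to A20. It had TPM of 7.25 and 4.22 (5.74 ± 2.14), from 783 and 549 expected counts, the lowest mean of the 9. Tnfaip3 exceeded Cyld by 6.26 in replicate 1 and 6.47 in replicate 2 on the log2(TPM + 1) scale (6.36 ± 0.15), and its TPM was 83.9 and 102.3 times that of Cyld. Per library, Tnfaip3 had 116 and 156 times the TPM of Otud7b.

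Of the A20 helpers, Tax1bp1 (ENSMUSG00000004535, chr6:52713729-52766780, plus strand), a ubiquitin-binding adaptor and autophagy receptor, was the most abundant. Its TPM was 61.8 and 46.7 (54.3 ± 10.7), from 4428 and 3290 expected counts. Itch (ENSMUSG00000027598, chr2:155133509-155226855, plus strand), a HECT-type ubiquitin ligase whose loss gives itchy mice, had TPM of 11.96 and 11.2 (11.6 ± 0.509), from 944 and 844 expected counts. Rnf11 (ENSMUSG00000028557, chr4:109451098-109484728, minus strand), a small RING-finger protein, had TPM of 10 and 8.15 (9.08 ± 1.31), from 712 and 497 expected counts. Tax1bp1 lay below Tnip1 by 1.03 ± 0.28 (Tnip1 minus Tax1bp1) and above Tnip2 by 1.06 ± 0.15 on the log2(TPM + 1) scale.

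By mean TPM the order was Tnfaip3, Tnip3, Tnip1, Tax1bp1, Tnip2, Itch, Rnf11, Cyld and Otud7b. Of its 8 pairs of neighbours, Rnf11 and Cyld differed by less than the spread: Rnf11 minus Cyld was -0.00131 in replicate 1 and 0.30 in replicate 2. The differences of Itch minus Rnf11 (0.33 ± 0.13) and of Cyld minus Otud7b (0.46 ± 0.07) were small but had the same sign in each library. Over protein-coding transcripts alone, Itch minus Rnf11 was -0.60 ± 0.08, and Cyld minus Otud7b was -0.11 in replicate 1 and 0.25 in replicate 2. The second transcript table, quantified in another way, kept the first 5 in order. There Tnfaip3 had TPM of 456 and 494, Tnip3 146 and 117, and Tnip1 98.4 and 94.97. In that table Otud7b had 9.90 and 11.0 TPM, above Cyld at 4.94 and 5.17 and Rnf11 at 3.95 and 4.22, so the order of the lowest 4 genes was not settled between the tables.

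**Figure D1:**
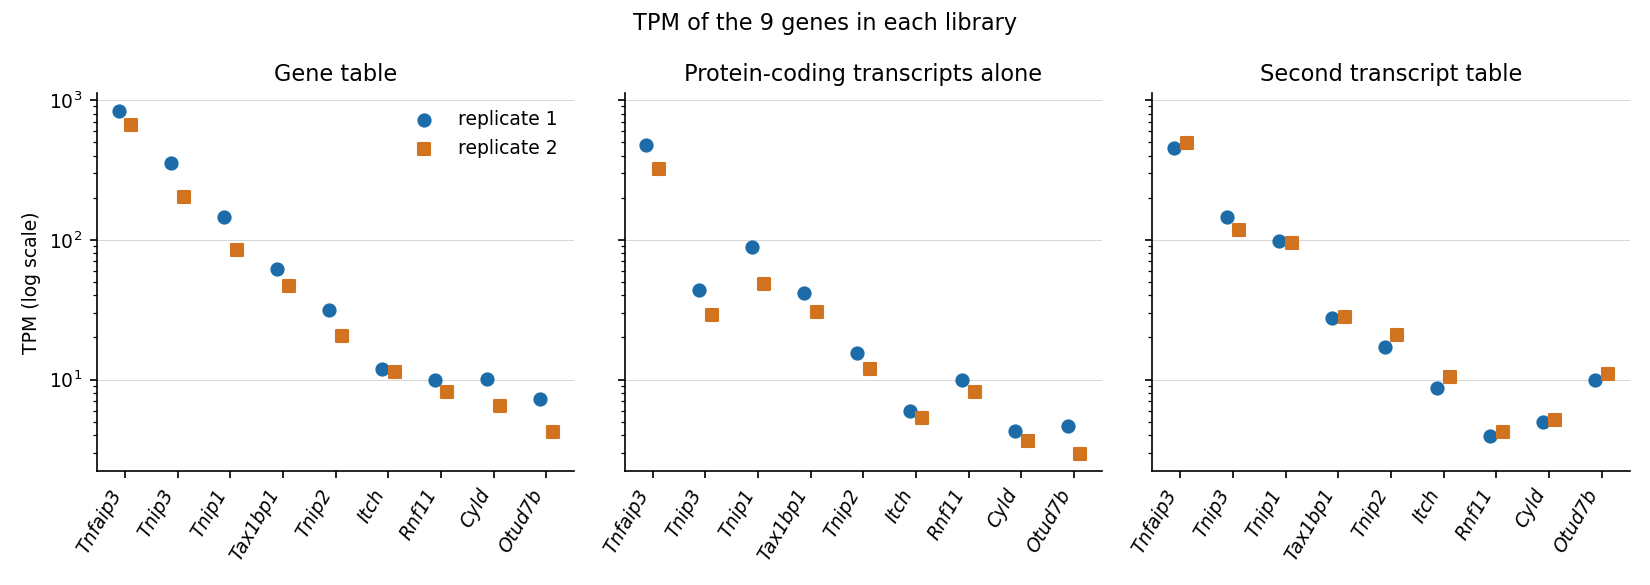
TPM on a log axis for each of the 9 genes (columns, ordered by mean TPM in the gene table), with a circle for replicate 1 and a square for replicate 2, from the gene table (left), from protein-coding transcripts alone (middle) and from the second transcript table (right). Tnfaip3 is highest in each panel, and Tnip3 lies above Tnip1 at left and right and below it in the middle.

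Part of the RNA of most of these genes was assigned to transcripts annotated as retained introns, which keep intron sequence that the coding transcript removes. Such a transcript was annotated for 7 of the 9 genes, and Otud7b and Rnf11 had none. The median share of gene TPM on such transcripts was 42.9% and 41.8% in replicates 1 and 2 for the 7 genes (42.4 ± 0.796%, SD, n = 2), against 27.6 ± 0.384% for 5609 protein-coding genes with such a transcript and a TPM of at least 1. Short transcripts weigh more in TPM than in reads, and as a share of expected counts the medians were 25.6 ± 3.20% and 15.2 ± 0.0368%. Reads from introns of unspliced precursor RNA and from a stable intron-retaining transcript cannot be told apart in these tables. The share was 50% or more in both libraries for 2 of the 7 genes, Tnip3 and Itch, and for 13.9% of the 5609. Taken over expected counts, 1 of the 7 (Tnip3) and 11.4% of the 5609 met this limit, and 3 of the 7 (Tnip3, Itch and Tnip2) and 20.3% of the 5609 did so in the second transcript table. The median share in that second table was 40.7 ± 5.24% for the 7 genes and 32.9 ± 0.726% for the 5609, a smaller gap than in the first. By TPM share, the genes other than Tnip3 lay above 33.7% (Tnip1) to 83.6% (Tnip2) of the 5609 in replicate 1. In replicate 2 they lay above 35.4% (Tnip1) to 84.6% (Itch). With 7 genes, the counts at 50% do not set them apart from all genes.

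Tnip3 had the highest share, 87.5% and 85.8% of its TPM, above that of 99.2% and 98.8% of the 5609 genes. Its share of expected counts was 82.9% and 83.9%, so it did not rest on short transcripts. Its 4 retained-intron transcripts all took part. Tnip3-206 is a single exon of 4627 bases that covers the whole first intron of the coding transcript Tnip3-201 and part of the second, and it had TPM of 88.7 and 54.7 with 9562 and 5600 expected counts. Tnip3-204, a single exon that covers parts of introns 4 and 5, had TPM of 75.1 and 57.5. Tnip3-205 had 92.9 and 37.3 TPM, and Tnip3-203 had 52.2 and 25.0. Tnip3-205 was the top transcript in replicate 1 and Tnip3-204 in replicate 2. The coding transcript Tnip3-201, whose start at chr6:65590398 is that of the printed promoter, had TPM of 33.6 and 17.9. Tnip3-207, which starts far upstream at chr6:65525385, had 9.99 and 10.9 TPM. Tnip3-208, which starts beside it, had no count in either library of the first transcript table. All transcript values come from that table unless the second is named. In the second, Tnip3-207 was above Tnip3-201 in each library, at 16.1 and 15.2 against 9.92 and 6.72 TPM.

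Tnfaip3 held 42.9% and 51.1% of its TPM on 2 retained-intron transcripts. Tnfaip3-206, a transcript of 764 bases that covers part of intron 2 of Tnfaip3-201, had TPM of 218 and 216 but 2964 and 2748 expected counts. Tnfaip3-205 spans almost the whole gene and contains introns 5 and 7 of Tnfaip3-201 entire (chr10:19005732-19006862 and chr10:19003758-19004456). It had TPM of 143 and 120 and drew 20833 and 16702 expected counts. The coding transcript Tnfaip3-201, which starts at the printed promoter, had TPM of 248 and 142, and Tnfaip3-202, which starts in the gene at chr10:19011963, had 182 and 137. The top transcript was Tnfaip3-201 in replicate 1 and Tnfaip3-206 in replicate 2, and in the second transcript table it was Tnfaip3-204 and Tnfaip3-206. That second table also put Tnfaip3-202 above Tnfaip3-201 in each library, at 95.8 and 88.0 against 60.8 and 46.4 TPM. The tables and libraries thus did not name the same top isoform of the A20 gene.

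**Figure D2:**
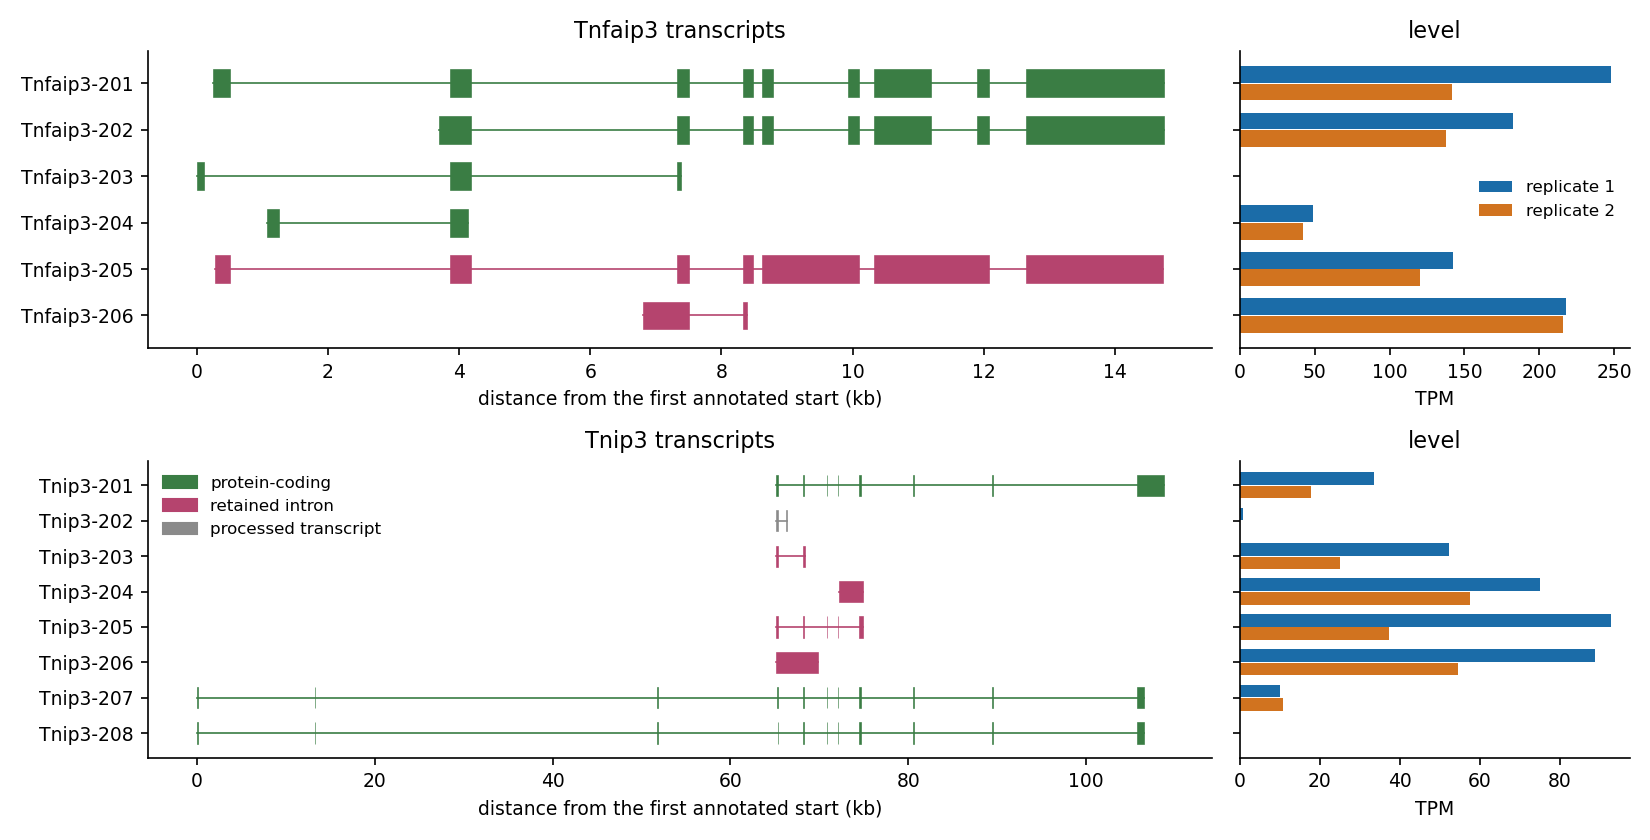
Annotated transcripts of Tnfaip3 (top) and Tnip3 (bottom) drawn to scale against distance from the first annotated start in kilobases, with boxes for exons and lines for introns, coloured by annotated type, beside their TPM in replicate 1 and replicate 2. The 4 retained-intron models of Tnip3 lie in the first part of Tnip3-201 and exceed its TPM of 33.6 and 17.9 in each library.

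Among the other genes, Itch had retained-intron shares of 50% and 53.1%, led by Itch-204, which covers part of intron 2 of Itch-201 and had TPM of 3.97 and 4.19. The coding Itch-201 was its top transcript at 5.37 and 4.27. The shares of Itch were 23.3% and 27.9% of expected counts and 70.7% and 70.4% of TPM in the second table, where Itch-204 was the top transcript. Tnip2 had shares of 50.4% and 41.8% of TPM and of 21.9% and 18.0% of expected counts. They lay on Tnip2-204 and Tnip2-206 and, in replicate 1 alone, Tnip2-205, and all of these reach into intron 2 of Tnip2-202, its top transcript at TPM of 12.1 and 8.89. Tax1bp1 had 32.2% and 35.1%, with the coding Tax1bp1-201 on top at 36.6 and 27.4 TPM. Cyld had 28.5% and 33.3%, on few counts per transcript. Its top transcript was the processed transcript Cyld-208 at 2.90 TPM in replicate 1 and the coding Cyld-206 at 1.60 in replicate 2, although Cyld-206 had 0.11 in replicate 1. Tnip1 had the lowest shares of the 7, 18.9% and 18.6%, all on the 442-base Tnip1-209, and 3.11% and 2.94% of its expected counts.

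Protein-coding transcripts took the rest for most genes. Tnip1, Otud7b and Cyld also had processed transcripts, at 20.2% and 24.1%, 35.7% and 30.8%, and 29.0% and 9.80% of TPM in replicates 1 and 2. Such transcripts took 0.99% and 0.32% of Tax1bp1 TPM, and 0.22% of Tnip3 TPM in replicate 1 alone. For Itch they took none in the first transcript table but 7.17% and 7.20% in the second. Tnip1-205 was the top Tnip1 transcript in the first transcript table, at TPM of 47.3 and 28.5, while the second table put Tnip1-209 first, at 24.0 and 20.8. Otud7b-201 had 3.83 and 2.49 TPM in the first table but was near 0 in the second, which gave Otud7b-208, an 880-base processed transcript, 5.02 and 5.76 TPM. Rnf11 was all protein-coding, with Rnf11-201 at 5.57 and 3.43 TPM and Rnf11-202 at 4.43 and 4.72, so the replicates differed in which came first.

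**Figure D3:**
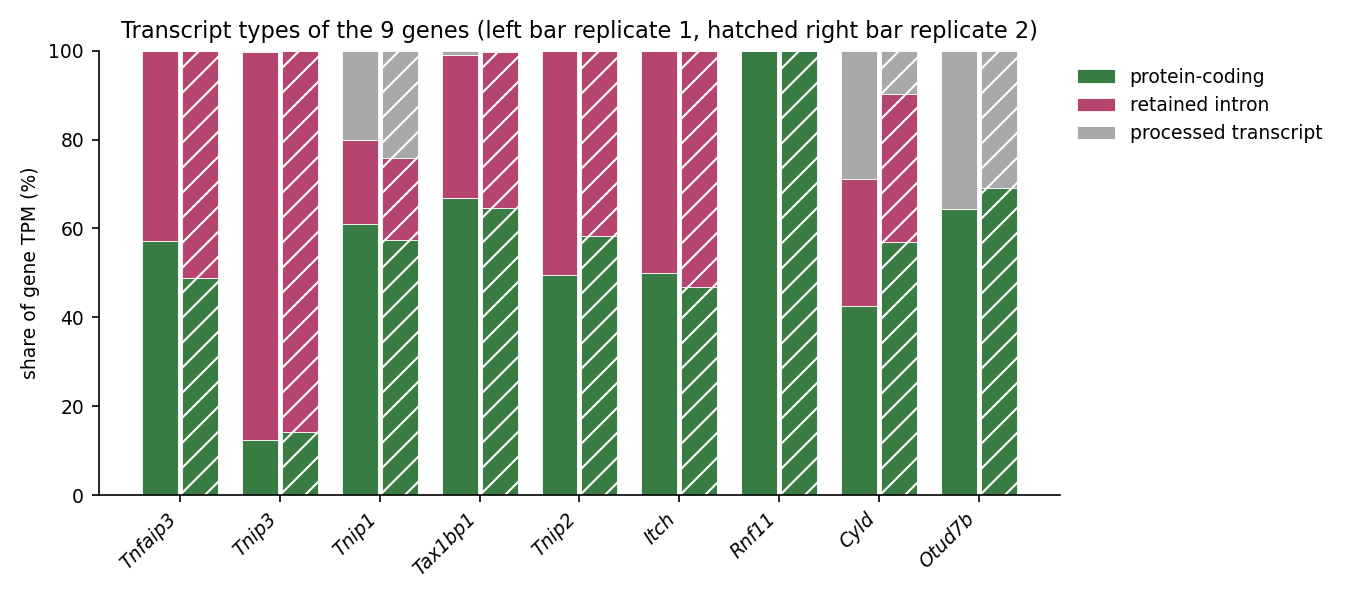
Share of gene TPM in percent on protein-coding, retained-intron and processed transcripts for the 9 genes, ordered by mean TPM, with replicate 1 as the plain left bar and replicate 2 as the hatched right bar of each pair. Tnip3 stands out with 87.5% and 85.8% on retained-intron transcripts, and Rnf11 is wholly protein-coding.

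Some of these genes overlap others on the opposite strand, and whether the counting used strand is not given in the sources used here, so reads in the overlap cannot be divided with certainty. The overlapping gene of Tnip1 is the processed pseudogene Gm12230, which had TPM of 62.0 and 23.3 from 376 and 129 expected counts, set against 5109 and 2800 counts for Tnip1. Cyld overlaps Gm17995 and Gm17910, Tax1bp1 overlaps Gm43966 and Gm43967, and Itch overlaps Gm14227. Each of these 5 had at most 29 expected counts in a library. Tnfaip3, Tnip2, Tnip3, Otud7b and Rnf11 have no annotated overlap.

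The machinery that writes, reads and depends on the same chains was taken as a wider list of 32 genes. Its median log2(TPM + 1) was 4.04 ± 0.40 (SD, n = 2), beside 4.72 ± 0.43 for the 9 genes. A TPM of 10 in both libraries was reached by 23 of the 32, and of 100 by 2, as by 2 of the 9. Of all protein-coding genes, 14.4% and 1.39% reached these limits. Sqstm1, the autophagy receptor p62, was highest at TPM of 496 and 361, below Tnfaip3 in each library. Peli1, a ligase of Toll-like receptor signalling, had TPM of 124 and 105, and Birc3, the ligase cIAP2, had 135 and 90.01. Lowest were Otud7a, the close relative of Otud7b, with no count in either library, Nedd4, a relative of Itch, at 0.27 and 0.26, and Tab3 at 2.63 and 1.46.

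The subunits of LUBAC, the complex that writes linear chains, were at like levels: Rnf31 (HOIP) had TPM of 14.9 and 13.6, Rbck1 (HOIL-1) 18.4 and 10.4, and Sharpin 17.9 and 15.5. Otulin, which cuts linear chains, had TPM of 22.4 and 13.4. Spata2, which links CYLD to LUBAC, had 12.9 and 8.55, close to the 10.01 and 6.43 of Cyld itself. Zranb1, another OTU enzyme, had 8.52 and 6.15. Of the readers, Optn (optineurin), which has a ubiquitin-binding region like that of the ABINs, had TPM of 67.7 and 40.1, and Ikbkg (NEMO) had 6.94 and 4.59. Ripk1, a kinase that carries such chains, had 24.7 and 18.5. By TPM of the gene table, Tnfaip3, Tnip3 and Tnip1 thus exceeded the LUBAC subunits, Otulin and Ripk1 in each library. Cyld and Otud7b lay below those subunits, Otulin and Ripk1. The wider list was not compared in the second transcript table or over protein-coding transcripts alone. Of the genes of this list named here, Birc3, Rbck1 and Sharpin have no annotated overlap with another gene. The others do (Rnf31 overlaps Irf9, Ikbkg overlaps G6pdx, Spata2 overlaps Rnf114, for example). Strands were not compared for these pairs, so reads in their overlaps cannot be divided with certainty.

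After normalisation for library size and composition (TMM), the replicates were close for all 9 genes. Of the 9, 0 were more than 2-fold apart, against 1.18% of the 10088 genes with a mean count of at least 50. No test was made, and at so low a share over all genes, 0 of 9 does not set these genes apart. The other settings tried also gave 0 of the 9, where the share of all genes compared was 6.8% past a 1.5-fold limit, and at 2-fold 1.17% with DESeq2 size factors, 4.41% at a mean count of at least 10, 26.1% with no filter and 3.46% in the second transcript table. Tnfaip3 had 57238 and 55391 normalised counts, a log2 ratio of replicate 1 over replicate 2 of 0.05. Tnip1 had the largest ratio, 0.37 from 4305 and 3323 normalised counts, and Itch the lowest, -0.33 from 795 and 1002. Tnip3 had 0.25. The absolute ratios of Tnip2, Cyld, Otud7b, Tax1bp1 and Rnf11 were at most 0.07. The median absolute log2 ratio was 0.066 over the 9 genes and 0.18 over all 10088. These medians are not matched for count. The lowest of the 9 was Rnf11 at 600 and 590 normalised counts, whereas the 10088 reach down to a mean count of 50. In the gene table, replicate 1 had the higher TPM for all 9 genes. After TMM normalisation, replicate 1 was the higher library for 7 and the lower for Tax1bp1 and Itch. By TPM of the second transcript table, replicate 1 was the higher library for Tnip1 and Tnip3 only, and Tnfaip3 had 456 and 494.

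**Figure D4:**
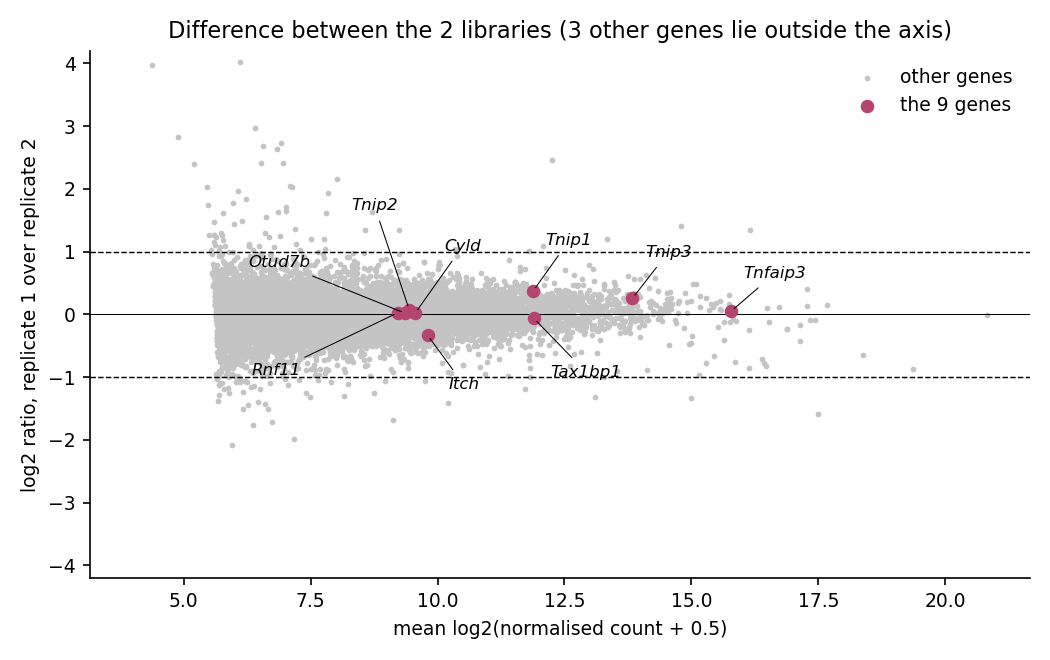
Log2 ratio of normalised counts, replicate 1 over replicate 2, against the mean log2 of normalised count + 0.5 for 10088 genes, with the 9 genes labelled and dashed lines at 2-fold. All 9 lie between -0.33 and 0.37, and 3 other genes lie outside the plotted range.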

How the data were processed

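Total RNA-seq of 2 libraries of 1 group was used. Tables were made on mm10 with GENCODE M21, per the file headers. How reads were aligned and quantified, and whether strand was used, was not given in the sources used here. Deposited by the authors, the expected counts are estimated reads per gene or transcript that need not be whole and are not normalised. The TPM values deposited by the authors are divided by effective length and scaled to a fixed sum within a library. The second transcript table, also deposited by the authors, holds estimated counts and TPM, which were summed per gene here.

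The members and all lists were chosen with earlier results of these data known. A symbol was matched to its annotated gene. Rows naming no mouse gene (26345, with 0.662% and 0.232% of counts) were left out of library sizes. Levels are log2(TPM + 1), and differences between genes were taken within a library and are given as mean ± SD. With 1 group, nothing could be tested between groups. A zero count has a floor of 3 counts, which covers counting error only, since PCR reads may repeat a molecule. For the replicates, expected counts were rounded and scaled by TMM in edgeR 4.0.16 (R 4.3.3), with 0.5 added before the ratio and a mean count of at least 50. DESeq2 1.42.0 size factors were an alternative. The script was tested on simulated data. Other steps used Python 3.11.15 with numpy 2.4.6 and pandas 2.3.3.

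Named genes were the 9 members, the 3 highest and 3 lowest of the wider list, 10 genes of it fixed by name (Otud7a by both parts of the rule), each member's top transcript per library and each overlapping gene; other transcripts and the second genes of overlapping pairs in the wider list were added after their values were seen.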

Additional observations from a re-analysis of the deposited data

How the results depend on the processing

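Over 11 results and 60 alternative values, 36 stayed within the spread or within 1.5 times the count, 21 moved and 3 reversed. Some of the 36 could not have moved, so the tally is no measure of robustness. With 2 libraries, a median, difference or share from a single replicate always lies within the SD of the mean. The list median over genes at a TPM of at least 1 was also fixed, since every listed gene passed that limit. Tnip3 minus Tnip1 was 1.27 over the whole gene and -0.87 over protein-coding transcripts alone, Itch minus Rnf11 was 0.33 and -0.60 likewise, and Cyld minus Otud7b was 0.46 but -0.92 in the second table. These alternatives and all others for these pairs were chosen after seeing the data. So were every value over protein-coding transcripts alone and those for the count at a retained-intron share of 50%. Tnip3 minus Tnip1 moved to 0.43 in the second transcript table and 1.95 with CPM, and by little with rescaled TPM (1.27) and a pseudocount of 0.1 (1.28). Rescaling TPM over protein-coding genes moved the list median to 6.87, CPM to 5.65 and protein-coding transcripts alone to 3.87. Tnfaip3 minus Cyld moved to 6.19 with CPM and 6.52 with a pseudocount of 0.1. Tnip1 minus Tnip2 moved to 2.30 in the second table and 2.41 with CPM, and Tnip3 minus Tnip2 to 2.74 in the second table, 4.36 with CPM and 1.32 over protein-coding transcripts. At a TPM limit of 100 the count of genes was 2. At a limit of 10 it was 5, without Itch, in the second table and over protein-coding transcripts alone, and 9 with CPM or rescaled TPM. The shares of all protein-coding genes under these settings were not computed. At a retained-intron share of 50% the count of genes was 2 by TPM (13.9% of the 5609) and 1 by expected counts (11.4%). The median retained-intron share was 40.7% in the second table, 25.6% of expected counts and 46.4% over genes at a TPM of at least 10. Leaving out a replicate gave list medians of 4.42 to 5.02, counts of 6 to 8, Tnfaip3 minus Cyld of 6.26 to 6.47, Tnip1 minus Tnip2 of 1.99 to 2.18, Tnip3 minus Tnip2 of 3.26 to 3.45, Tnip3 minus Tnip1 of 1.27 in each case, and shares of 41.8% to 42.9%. The cause was not tested for any of these. No paired analysis was possible because there was 1 group. With 2 libraries the SD itself is poorly known.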
